A study of Mus musculus with 16 samples.

Results

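Class II major histocompatibility complex molecules were followed through 7 transcripts in mouse heart RNA: H2-Aa, H2-Ab1, H2-Eb1, H2-DMa, H2-DMb1, Cd74 and Ciita. They were taken by gene identity from a table of 30153 genes, and all 7 were listed. Genes with at least 1 TPM (a length-corrected relative abundance of transcripts) in at least 3 libraries were tested, 11415 in all. Of the 7, 5 passed that filter, and H2-DMa and Ciita did not. The 16 libraries came from heart tissue of separate mice. Aged Hap-I mice given western diet gave 5, aged Hap-I mice with no diet named gave 4, adult Hap-I mice given western diet gave 4, and adult C57 mice with no diet named gave 3. All 16 mice carry the strain label C57/BL6, and Hap-I mice express in addition a human angiotensin type 1 receptor gene of haplotype I. The promoter that drives the transgene, ages in months, sex and the length of the diet are not given in the sources used here. The series' design text names the adult Hap-I group without a diet, whereas the labels of its 4 samples state a western diet. The labels were followed, and this conflict touches every comparison with that group.

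Class II molecules are cell-surface heterodimers that show peptides from swallowed proteins to CD4+ T cells. Macrophages, dendritic cells and B cells make them constitutively, and interferon gamma induces them in other cell types of the heart. Their chains assemble in the endoplasmic reticulum on the invariant chain, encoded by Cd74. In endosomes cathepsins degrade the invariant chain down to a groove-filling fragment, which the H2-DM heterodimer exchanges for peptide. Ciita, the class II transactivator, binds no DNA itself and docks on factors already bound to the X and Y boxes of class II promoters.

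In GRCm38, 5 of the genes lie within 197 kb of chromosome 17. H2-DMa (ENSMUSG00000037649) spans 34119541 to 34139101, H2-DMb1 (ENSMUSG00000079547) 34153072 to 34160230 and H2-Ab1 (ENSMUSG00000073421) 34257689 to 34269419. H2-Aa (ENSMUSG00000036594), on the opposite strand, spans 34282744 to 34287823, and H2-Eb1 (ENSMUSG00000060586) 34305867 to 34316674. Ciita (ENSMUSG00000022504) lies on chromosome 16 at 10480059 to 10528418, and Cd74 (ENSMUSG00000024610) on another chromosome.

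The promoters of 3 of these genes are shown because they carry the boxes through which class II transcripts are known to be controlled together. Windows from RefSeq on GRCm38.p6, running from 250 bases before a RefSeq start of the gene to 50 after it, were used for 4 of the 7 genes. No window matched H2-Ab1 or Ciita, and Cd74 was left out of the search. Capitals mark the Y box core TGATTGG, the X box part AACTGATG and the palindrome TGACGTCA, the X2 box to which Creb1 binds. The windows are chr17:34287774-34288073 on the minus strand for H2-Aa, chr17:34305617-34305916 on the plus strand for H2-Eb1 and chr17:34152941-34153240 on the plus strand for H2-DMb1.
H2-Aa: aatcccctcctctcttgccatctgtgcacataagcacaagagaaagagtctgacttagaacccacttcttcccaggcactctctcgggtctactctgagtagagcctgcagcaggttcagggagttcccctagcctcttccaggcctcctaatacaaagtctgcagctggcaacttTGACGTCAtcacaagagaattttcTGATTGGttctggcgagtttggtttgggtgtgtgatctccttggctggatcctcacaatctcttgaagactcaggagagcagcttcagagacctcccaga
H2-Eb1: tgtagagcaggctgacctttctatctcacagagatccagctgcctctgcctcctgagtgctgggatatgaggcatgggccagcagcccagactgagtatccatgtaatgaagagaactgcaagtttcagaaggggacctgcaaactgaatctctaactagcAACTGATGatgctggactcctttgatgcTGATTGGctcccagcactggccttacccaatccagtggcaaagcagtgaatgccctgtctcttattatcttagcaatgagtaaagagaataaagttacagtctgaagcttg
H2-DMb1: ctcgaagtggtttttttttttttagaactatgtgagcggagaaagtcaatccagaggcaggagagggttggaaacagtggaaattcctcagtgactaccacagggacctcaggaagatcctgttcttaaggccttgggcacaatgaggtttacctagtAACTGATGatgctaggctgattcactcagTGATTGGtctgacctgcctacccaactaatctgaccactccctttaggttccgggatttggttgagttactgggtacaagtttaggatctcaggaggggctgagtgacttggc
Distances are counted from the start on which each window is set. For H2-DMb1 that start lies inside the gene span given above, so its boxes lie after the first base of that span. The Y box core began 50 bases before the start of H2-Aa, 61 before that of H2-Eb1 and 63 before that of H2-DMb1. The X box part began 89 bases before the start of H2-Eb1 and 92 before that of H2-DMb1. In H2-Aa these letters were not in the window, and the palindrome began 74 bases before the start. The marked boxes do not overlap. On either strand, TGATTGG stood in 7.82% of all 32851 promoter windows, TGACGTCA in 1.79% and AACTGATG in 0.776%. Neither of 2 windows at H2-DMa held any of the 3 motifs. Both lie inside the gene span given above and do not cover its first base, so the sequence there was not searched. A match is a description of these letters and no measure of binding.

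Cd74, H2-Aa and H2-Ab1 made up nearly all of the class II signal. Levels are given as scaled TPM, that is TPM divided by a size factor for each library, and they can be compared between genes because TPM are per length. Over the 16 libraries, Cd74 had a median of 80.5 scaled TPM, H2-Aa 44.0 and H2-Ab1 21.9. These 3 transcripts held 96.1% to 98.1% of the summed level of the 7 genes in every library. H2-DMb1 followed at a median of 3.13 scaled TPM, and H2-Eb1 (0.587), Ciita (0.235) and H2-DMa (0.0854) were all below 1. Within each library Cd74 stood above H2-Aa and H2-Aa above H2-Ab1, although the ranges of these neighbours overlapped across libraries. The range of H2-DMb1 (1.89 to 5.57) overlapped neither that of H2-Ab1 (13.7 to 47.2) nor that of H2-Eb1 (0 to 1.48). The ranges of H2-Eb1, Ciita and H2-DMa overlapped, so their order was not beyond their spread.

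**Figure D1:**
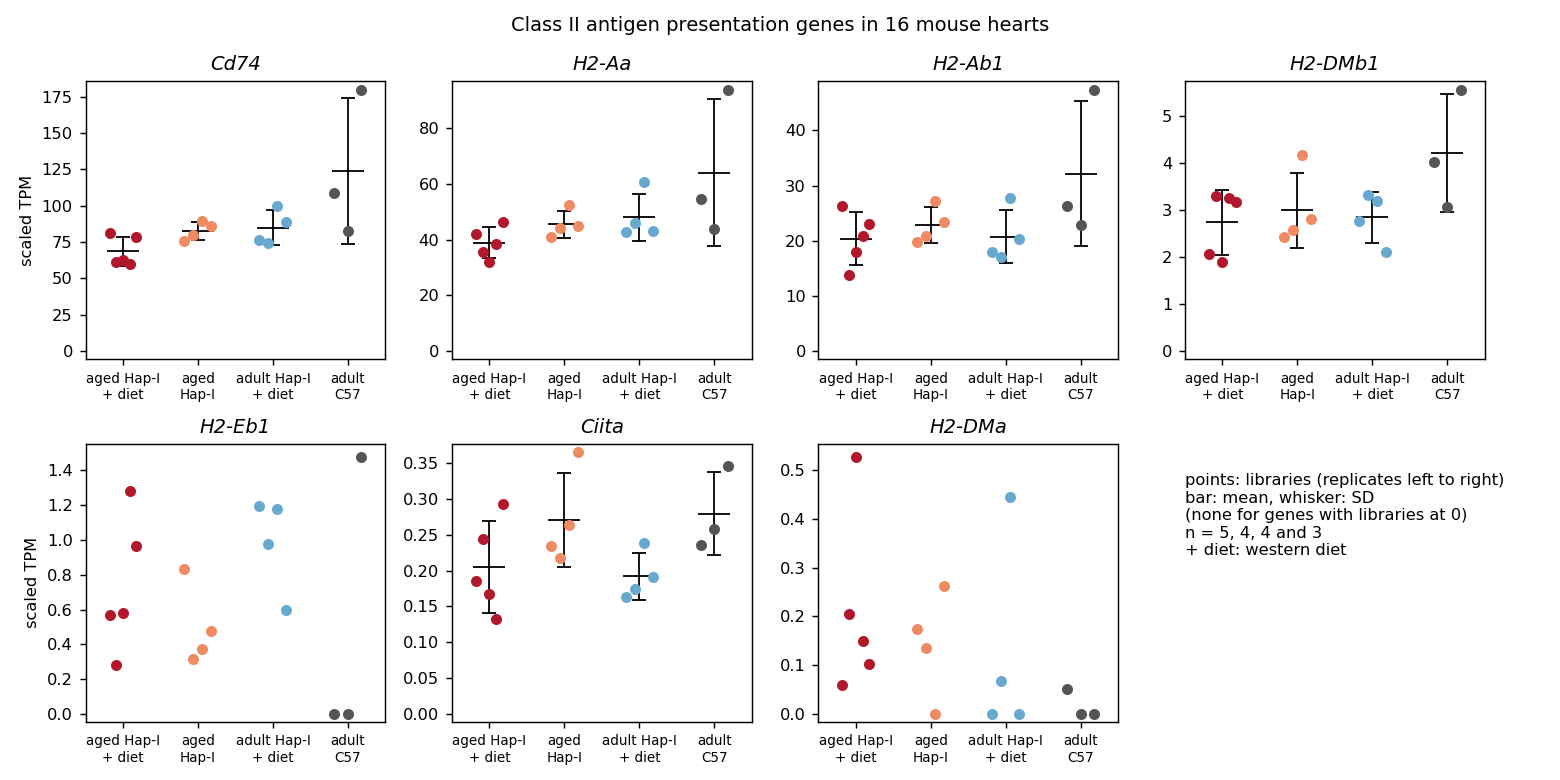
Scaled TPM of the 7 class II genes in each of the 16 hearts, by group, with the mean and SD where no library was at 0 (n = 5, 4, 4 and 3). C57 replicate 3 is the highest point of every panel but Ciita and H2-DMa, and H2-DMa, Ciita and most H2-Eb1 values lie below 1.

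H2-Aa encodes the alpha chain of the I-A molecule. It stood at 42.1, 35.7, 32.03, 38.6 and 46.2 scaled TPM in aged western-diet Hap-I hearts and at 40.9, 44.2, 52.4 and 44.8 in aged Hap-I hearts. It stood at 42.7, 46.0, 60.5 and 43.1 in adult western-diet Hap-I hearts, against 54.6, 43.7 and 93.8 in C57 hearts. The 3 Hap-I groups overlapped one another, and 4 of 5 aged western-diet hearts lay below every C57 heart.

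H2-Ab1 encodes the beta chain that pairs with H2-Aa. Its levels were 26.4, 13.7, 17.98, 20.8 and 22.99 scaled TPM in aged western-diet Hap-I hearts and 19.8, 20.8, 27.1 and 23.4 in aged Hap-I hearts. They were 18.03, 17.002, 27.7 and 20.4 in adult western-diet Hap-I hearts, against 26.3, 22.9 and 47.2 in C57 hearts. Every pair of groups overlapped. H2-Ab1 ran at 0.370 to 0.626 of H2-Aa within a library.

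H2-Eb1 encodes the beta chain of the I-E molecule. Its alpha chain gene H2-Ea, which mice of the C57BL/6 background are known not to express, was listed at 0 in all 16 libraries. H2-Eb1 stood at 0.571, 0.282, 0.578, 1.28 and 0.968 scaled TPM in aged western-diet Hap-I hearts and at 0.834, 0.315, 0.375 and 0.475 in aged Hap-I hearts. It stood at 1.20, 0.978, 1.18 and 0.597 in adult western-diet Hap-I hearts, against 0, 0 and 1.48 in C57 hearts. C57 hearts thus held both the lowest and the highest values, and all groups overlapped.

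Cd74 encodes the invariant chain, which is also a surface receptor for the cytokine macrophage migration inhibitory factor. It stood at 80.9, 61.3, 62.8, 60.0 and 78.3 scaled TPM in aged western-diet Hap-I hearts and at 75.4, 80.2, 89.4 and 86.1 in aged Hap-I hearts. It stood at 76.1, 74.2, 100.1 and 88.6 in adult western-diet Hap-I hearts, against 108.7, 82.9 and 179.6 in C57 hearts. In scaled TPM all 5 aged western-diet hearts lay below all 3 C57 hearts, the nearest at 80.9 against 82.9, whereas the other Hap-I groups overlapped C57. In unscaled TPM the aged western-diet hearts overlapped C57 too, with their replicate 1 at 99.4 and C57 replicate 2 at 79.0. How many of all genes separate these groups was not counted. Its mean was 68.7 ± 10.1 (SD, n = 5) in aged western-diet, 82.8 ± 6.23 (n = 4) in aged and 84.8 ± 12.1 (n = 4) in adult western-diet Hap-I hearts, and 124 ± 50.1 (n = 3) in C57 hearts. The spread among C57 hearts was thus the widest of the 4 groups.

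In the deposited values, the H2-DM heterodimer, which loads peptide, was represented almost wholly by its beta chain. H2-DMb1 stood at 2.07, 3.30, 1.89, 3.27 and 3.19 scaled TPM in aged western-diet Hap-I hearts and at 2.44, 2.59, 4.18 and 2.82 in aged Hap-I hearts. It stood at 2.77, 3.32, 3.21 and 2.12 in adult western-diet Hap-I hearts, against 4.03, 3.08 and 5.57 in C57 hearts. All groups overlapped. Of the 31-base stretches of its annotated transcripts, 31.4% also occur in its copy H2-DMb2, so its level is uncertain. H2-DMa, the alpha chain, was at 0.0592, 0.205, 0.527, 0.150 and 0.103 scaled TPM in aged western-diet Hap-I hearts and at 0.174, 0.135, 0 and 0.262 in aged Hap-I hearts. It was at 0, 0.0682, 0.445 and 0 in adult western-diet Hap-I hearts, against 0.0516, 0 and 0 in C57 hearts. The aged western-diet hearts lay above the C57 hearts without overlap, but at levels too low to be tested here. The median of H2-DMb1 was 36.7 times that of H2-DMa, although the proteins are known to work as a pair. No 31-base stretch of H2-DMa is shared with another gene. The annotation release behind the deposited values is not stated, and a quantification effect on H2-DMa could not be checked without reads. Its level is therefore uncertain.

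Ciita ranged from 0.132 to 0.293 scaled TPM in aged western-diet Hap-I hearts and from 0.218 to 0.365 in aged Hap-I hearts. It ranged from 0.164 to 0.238 in adult western-diet Hap-I hearts, against 0.236 to 0.345 in C57 hearts. Every library had some Ciita signal, none reached 1 TPM, and all groups overlapped. In a fit without the filter, over 22342 genes, the log2 fold changes of H2-DMa and Ciita in the 7 comparisons lay between -0.10 and 0.24. Their smallest limma adjusted p was 0.293, for Ciita in aged western-diet against C57 hearts.

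The effect of the western diet was asked in aged Hap-I hearts. Log2 fold changes, on the scale of log2(scaled TPM + 1), were -0.27 ± 0.18 (SE) for Cd74, -0.23 ± 0.18 for H2-Aa and -0.18 ± 0.21 for H2-Ab1 in western-diet over other aged hearts. They were -0.10 ± 0.17 for H2-DMb1 and 0.19 ± 0.24 for H2-Eb1. None of the 5 genes was called at a limma adjusted p under 0.05, the call rule throughout, against 0.166% of all genes tested (0.0788% higher and 0.0876% lower), and none had an unadjusted p under 0.05. The smallest adjusted p was 0.473, for Cd74. The 5 genes had a median log2 fold change of -0.18, beside 0.0027 for all genes tested.

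Age was asked in Hap-I hearts under the western diet, aged over adult. All 5 values were below 0, between -0.30 ± 0.18 for Cd74 and -0.03 ± 0.21 for H2-Ab1. None was called (background 2.39%, with 1.67% higher and 0.718% lower), none had an unadjusted p under 0.05, and the smallest limma adjusted p was 0.363. Aged Hap-I over adult western-diet Hap-I hearts gave values from -0.41 ± 0.25 for H2-Eb1 to 0.14 ± 0.22 for H2-Ab1. Here too none was called (background 2.14%, with 1.25% higher and 0.885% lower) or had an unadjusted p under 0.05, and the smallest adjusted p was 0.364.

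Hap-I hearts were next set against C57 hearts. These 4 comparisons share the same 3 C57 libraries, so they are not independent of one another. Cd74 was lower in aged western-diet Hap-I hearts than in C57 hearts, by a log2 fold change of -0.78 ± 0.19 or 1.71-fold (limma adjusted p = 0.0103). In scaled TPM, though not in unscaled TPM, 5 of 5 hearts were below every C57 heart. H2-Aa was lower by -0.64 ± 0.19 or 1.56-fold (adjusted p = 0.0293, 4 of 5 hearts below every C57 heart). H2-Ab1 had a value of -0.60 ± 0.23 (adjusted p = 0.0742) and H2-DMb1 of -0.48 ± 0.19 (adjusted p = 0.0791). H2-Eb1 had the opposite sign, at 0.33 ± 0.26 (adjusted p = 0.385). Thus 2 of 5 genes were called, both lower, where 21.9% of all genes tested were called, 12.3% higher and 9.57% lower. The median log2 fold change of the 5 genes was -0.60, beside -0.0014 for all genes.

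For the mean of the 3 Hap-I groups over C57, Cd74 alone was called, at -0.59 ± 0.17 (limma adjusted p = 0.0281). This was 1 gene of 5, with 15.7% of all genes called, 9.42% higher and 6.31% lower. H2-Aa stood at -0.47 ± 0.17 (adjusted p = 0.0752), H2-Ab1 at -0.53 ± 0.20 (adjusted p = 0.0861), H2-DMb1 at -0.42 ± 0.16 (adjusted p = 0.0881) and H2-Eb1 at 0.34 ± 0.23 (adjusted p = 0.333). In aged Hap-I hearts without the diet Cd74 stood at -0.50 ± 0.20 (adjusted p = 0.115). None of the 5 was called there (background 11.2%, with 7.18% higher and 4.06% lower), and Cd74 alone had an unadjusted p under 0.05. In adult western-diet Hap-I hearts H2-Ab1 stood at -0.56 ± 0.24, Cd74 at -0.48 ± 0.20 and H2-DMb1 at -0.42 ± 0.19 (adjusted p = 0.199, 0.191 and 0.235). None of the 5 was called (background 3.45%, with 1.95% higher and 1.50% lower), and these 3 had an unadjusted p under 0.05. In bulk RNA, fewer class II-bearing cells and less class II RNA per cell cannot be told apart.

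**Figure D2:**
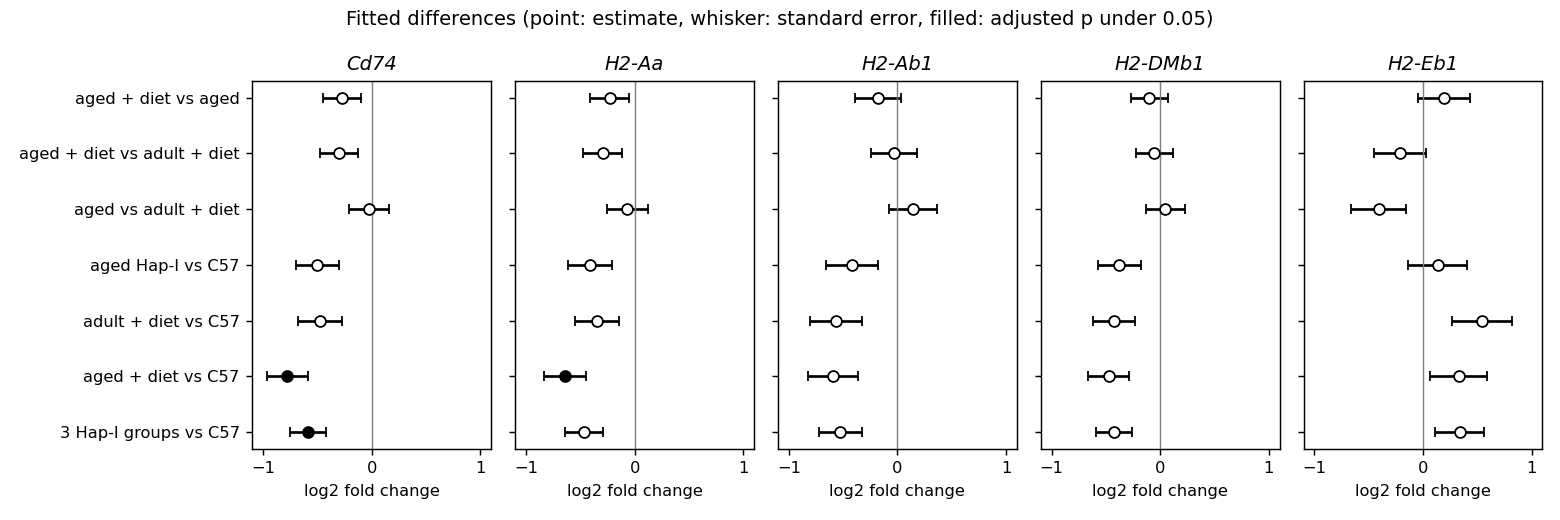
Log2 fold changes (points) with standard errors (whiskers) of the 5 tested class II genes in the 7 comparisons, filled where the limma adjusted p was under 0.05. The filled points are Cd74 and H2-Aa in aged western-diet hearts and Cd74 in the mean of the 3 Hap-I groups, each against C57.

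The differences from C57 rested in large part on 1 library, singled out after its values were seen. C57 replicate 3 had the highest level of 16 libraries for Cd74, H2-Aa, H2-Ab1 and H2-DMb1, while it was the highest for 979 of 11415 genes, or 8.58%. It was also the highest for H2-Eb1, which passed the filter only with this library and is not counted here. It stood 1.88 times above the mean of the other C57 hearts for Cd74, 1.91 times for H2-Aa, 1.92 times for H2-Ab1 and 1.57 times for H2-DMb1. H2-Eb1 was listed at 0 in the other C57 hearts. Markers of other kinds were also high there. The median ratio over the other C57 hearts was 1.68 for 5 pan-leukocyte markers, 1.496 for 9 class I genes and 1.47 for 14 macrophage markers, against 1.06 for 8 ventricular cardiomyocyte and 1.06 for 8 fibroblast markers. Atrial markers differed widely among C57 hearts, with Myl7 at 1843, 26.8 and 885 scaled TPM in replicates 1, 2 and 3.

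Without C57 replicate 3, neither Cd74 nor H2-Aa was called in aged western-diet against C57 hearts. Cd74 stood at -0.47 (limma adjusted p = 0.0628) and H2-Aa at -0.33 (adjusted p = 0.186), while 11% of all genes were called. Cd74 of the remaining C57 hearts, at 108.7 and 82.9 scaled TPM, still exceeded all 5 aged western-diet hearts, but in unscaled TPM it did not. H2-Eb1 was then listed at 0 in every C57 heart and reached 1 TPM in 2 of the 15 libraries, fewer than the filter asks, so its nominal call without that heart is not read as a difference. For the mean of the 3 Hap-I groups Cd74 stood at -0.28 without this library (adjusted p = 0.257), and its call was also lost without C57 replicate 1 (adjusted p = 0.0782). Without C57 replicate 2, in contrast, 4 genes were called lower in aged western-diet hearts, with Cd74 at -1.03 (adjusted p = 0.00278), and 17.6% of all genes were called. The same omission gave calls of Cd74 in aged Hap-I (-0.75, adjusted p = 0.0251) and adult western-diet Hap-I hearts (-0.73, adjusted p = 0.0472) against C57. H2-Aa also lost its call without C57 replicate 1, aged western-diet replicate 2 or aged western-diet replicate 3 (adjusted p = 0.0546, 0.0532 and 0.0654).

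The groups differed in other respects that move with these values. Transcripts from the Y chromosome summed to at most 0.402 scaled TPM in 5 hearts (aged western-diet replicates 1, 2 and 3, adult western-diet replicates 1 and 2) and to at least 18.8 in the other 11. With a covariate for these transcripts, Cd74 stood at -0.68 (limma adjusted p = 0.0562) and H2-Aa at -0.52 (adjusted p = 0.135) in aged western-diet against C57 hearts. In the 11 libraries with Y-linked transcripts alone, Cd74 stood at -0.77 (adjusted p = 0.0916) and H2-Aa at -0.52 (adjusted p = 0.249). Atrial markers summed to 86.1 to 199 scaled TPM in aged western-diet hearts and to 230.2 to 6779 in C57 hearts, and 4 of 5 were called lower. With an atrial covariate, chosen after the data were seen, Cd74 stood at -0.67 (adjusted p = 0.114) and H2-Aa at -0.55 (adjusted p = 0.198). The direction held in all of these fits while the calls did not.

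**Figure D3:**
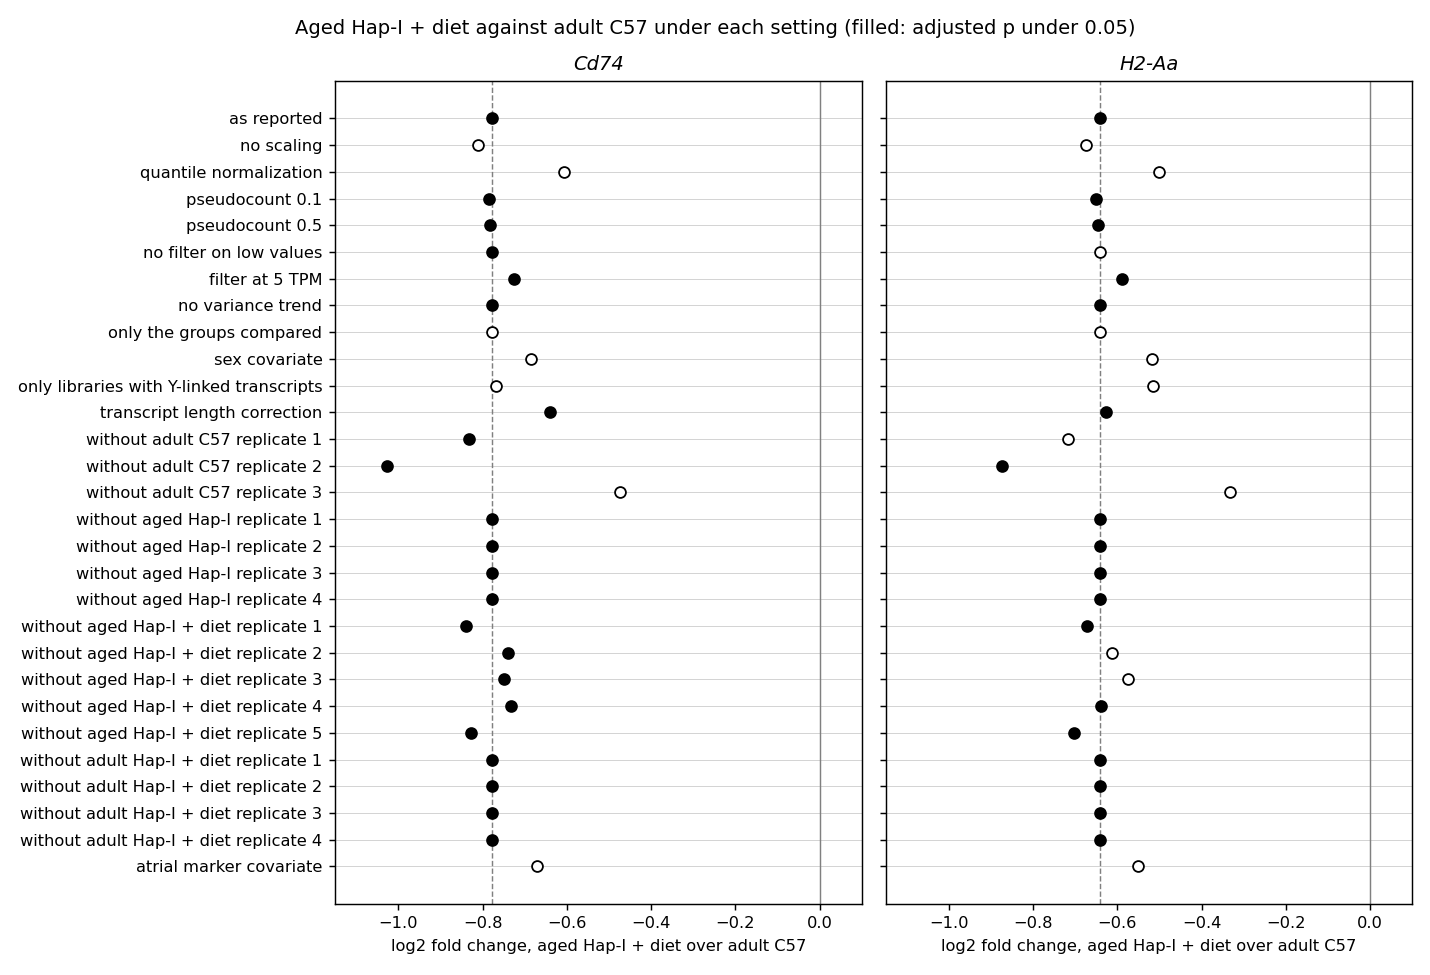
Log2 fold change of Cd74 and H2-Aa in aged western-diet Hap-I over adult C57 hearts, as reported and under each alternative, filled where the limma adjusted p was under 0.05. All points lie below 0, and those nearest 0 are the fits without C57 replicate 3, at -0.47 for Cd74 and -0.33 for H2-Aa.

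Cd74, H2-Aa and H2-Ab1 varied together from heart to heart. Over the 16 libraries, which include the high C57 heart and share 1 normalization, log2 levels of H2-Aa and Cd74 correlated at Pearson's r = 0.95, H2-Ab1 and Cd74 at 0.89 and H2-Aa and H2-Ab1 at 0.88. Without C57 replicate 3 these values were 0.87, 0.75 and 0.72. H2-DMb1 correlated with H2-Aa at 0.77 (0.59 without that library) and with Cd74 at 0.63 (0.30). H2-Eb1 correlated with the other 4 at 0.12 to 0.29, and at -0.32 to -0.04 without it. Cd74 over H2-Aa ranged only from 1.56 to 2.05 across all 16 libraries. Its mean was 1.77 ± 0.17 (SD, n = 5) in aged western-diet, 1.82 ± 0.089 (n = 4) in aged and 1.78 ± 0.20 (n = 4) in adult western-diet Hap-I hearts, and 1.93 ± 0.050 (n = 3) in C57 hearts. No comparison of this ratio passed an exact permutation test (two-sided, smallest p 0.143).

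The 10 genes whose log2 levels followed the mean of the 5 tested class II genes most closely over the 16 libraries were Csf1 (Pearson's r = 0.84), Rela (0.79), Vmn1r65 (0.78), Ctss (0.78), Gpsm3 (0.78), Tdp1 (0.77), Cbr3 (0.76), Emp3 (0.76), Csrp1 (0.76) and Cd86 (0.76). Csf1 is the growth factor of macrophages, Ctss the cathepsin that trims the invariant chain, and Cd86 a costimulatory ligand of antigen-presenting cells. Without C57 replicate 3, Csf1 stood at 0.58, Ctss at 0.42 and Cd86 at 0.28, while Tdp1, a DNA repair enzyme, stood at 0.74 and Emp3, a membrane protein, at 0.64. Likeness to Ctss and Cd86 therefore rested largely on that library. Rfx5 ran the other way, with r = -0.59, and -0.45 without the library.

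Other genes of the pathway were followed in lists. The remaining class II genes H2-Ea, H2-Eb2, H2-DMb2, H2-Oa and H2-Ob were below the filter, and the 5 summed to at most 1.52 scaled TPM in any library. Of 7 factors that bind class II promoters, all tested, none was called in the 3 comparisons among Hap-I groups. Rfx5, the subunit of the X box factor that gives the complex its name, was the exception against C57. It stood at 1.69, 1.92, 2.10, 2.15 and 1.58 scaled TPM in aged western-diet Hap-I hearts, against 0.916, 1.12 and 0.911 in C57 hearts, without overlap. The share of all genes that separate these groups was not counted. The rise was 0.54 ± 0.10 on the log2 scale (limma adjusted p = 0.00266), called under all 27 alternatives in which Rfx5 was tested. A filter at 5 TPM left it out. Among C57 hearts only replicate 2 was above 1 scaled TPM, so Rfx5 passed the filter only through Hap-I hearts. For the mean of the 3 Hap-I groups the rise was 0.38 ± 0.090 (adjusted p = 0.0121). That second call was lost without C57 replicate 1 or replicate 3 (adjusted p = 0.074 and 0.0775). Rfxap, another subunit of the complex, and Creb1 were not called in any comparison. In the diet comparison Creb1, Rfx5 and Rfxap had values of 0.23, 0.21 and 0.16, none called. In the fit as reported, aged western-diet hearts had Rfx5 called higher than C57 and Cd74 and H2-Aa called lower. The Cd74 and H2-Aa calls were lost under several alternatives, among them the fit without C57 replicate 3.

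Of 10 genes for lysosomal processing and turnover, Ifi30 was not analysed here and 8 were tested. Among Hap-I groups none was called. Against C57, Ctsl, a cathepsin that can degrade the invariant chain, fell to 35.96 to 54.9 scaled TPM in aged western-diet hearts, with 64.0 to 83.6 in C57 hearts (log2 fold change -0.72 ± 0.13, limma adjusted p = 0.00198). Lgmn, an asparagine endopeptidase of antigen processing, fell to 19.8 to 30.1 scaled TPM, with 39.0 to 42.3 in C57 hearts (-0.68 ± 0.13, adjusted p = 0.00294). Neither gene's groups overlapped, though the share of all genes that separate these groups was not counted. Both were also called lower for the mean of the 3 Hap-I groups, at -0.44 ± 0.11 and -0.43 ± 0.12 (adjusted p = 0.0183 and 0.0224), and for that mean both calls were lost without C57 replicate 3. Lgmn also lost it without C57 replicate 1 or 2 (adjusted p = 0.079 and 0.052). In aged western-diet hearts both calls were kept whichever heart was left out, and were lost without scaling. In the diet comparison Ctsl, Lgmn and Ctsd had values of -0.39, -0.33 and -0.19, none called. Ctss, at 22.2 scaled TPM in C57 replicate 3 and at 9.46 to 15.4 in the other 15 libraries, was called in no comparison.

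Of 8 genes on the interferon gamma input to Ciita, 6 were tested and none was called among Hap-I groups. Ifng itself was at most 0.129 scaled TPM and was above 0 only in C57 replicate 1 and aged Hap-I replicates 2 and 4. Against C57, Irf1, a transcription factor induced by interferon gamma that acts on the Ciita promoter, was called lower in all 4 comparisons. It stood at 7.99 to 13.0 scaled TPM in aged western-diet, 10.02 to 10.7 in aged and 8.20 to 10.7 in adult western-diet Hap-I hearts, against 14.5 to 15.9 in C57 hearts. No Hap-I heart reached the lowest C57 heart, though the share of all genes separated in this way was not counted. The log2 fold change was -0.62 ± 0.12 in aged western-diet (limma adjusted p = 0.00266), -0.52 ± 0.12 in aged (adjusted p = 0.0163) and -0.66 ± 0.12 in adult western-diet Hap-I hearts (adjusted p = 0.0101). Without C57 replicate 1 or 3 the calls in aged (adjusted p = 0.0653 and 0.0711) and adult western-diet hearts (adjusted p = 0.053 and 0.0508) were lost. For the mean of the 3 groups it was -0.60 ± 0.10 (adjusted p = 0.00214), called under all 27 alternatives.

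The receptor subunit Ifngr1 and the kinase Jak2, which transmit the interferon gamma signal, were called lower in 3 of the 4 comparisons with C57. Ifngr1 stood at -0.58 ± 0.16 in aged western-diet hearts (limma adjusted p = 0.0175), -0.60 ± 0.16 in aged hearts (adjusted p = 0.0309) and -0.57 ± 0.14 for the mean of the 3 groups (adjusted p = 0.0127). Jak2 stood at -0.76 ± 0.16 in aged western-diet hearts (adjusted p = 0.00404), -0.62 ± 0.16 in aged hearts (adjusted p = 0.025) and -0.55 ± 0.14 for the mean (adjusted p = 0.0143). Ifngr1 lost all 3 calls without C57 replicate 3, and lost the one in aged hearts without C57 replicate 1 or any single aged heart. Jak2 lost its call in aged hearts without any single C57 heart or without aged replicate 3 or 4, and its call for the mean without C57 replicate 2 or 3. In the diet comparison Ifngr2 and Jak1 had values of 0.31 and -0.27, neither called.

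Among 10 genes of the T cell receptor side and of costimulation, 6 were tested. Icosl, a costimulatory ligand, stood at 1.19 to 2.31 scaled TPM in aged western-diet and 0.706 to 2.24 in adult western-diet Hap-I hearts, against 2.63 to 3.83 in C57 hearts. It was called lower in both, at -0.54 ± 0.18 (limma adjusted p = 0.0384) and -0.76 ± 0.18 (adjusted p = 0.0354), and for the mean of the 3 Hap-I groups at -0.54 ± 0.15 (adjusted p = 0.0275). All 3 calls were lost without C57 replicate 1 or 3, and those in the 2 western-diet groups also without single Hap-I hearts (aged western-diet replicates 3 and 4, adult western-diet replicates 1, 2 and 3). Cd28, the T cell receptor for Cd86, was called higher in aged western-diet hearts at 0.45 ± 0.13 (limma adjusted p = 0.0249). Its levels there were 1.05 to 1.99, against 0.658 to 0.971 scaled TPM in C57 hearts. With no C57 heart at 1 TPM, it passed the filter only through Hap-I hearts. Its call was lost without C57 replicate 1, C57 replicate 3 or aged western-diet replicate 2. In the diet comparison Cd28, Icosl and Ctla4 had values of 0.41, -0.22 and 0.13, none called. Of 5 ligands and co-receptors of Cd74, 4 were tested and none was called in any comparison. Among them Mif, its cytokine ligand, stood at 0.33 in the diet comparison, Ddt at -0.20 and Cxcr4 at -0.26. Mif has 39.1% and Ddt 27.2% of its 31-base stretches in common with another transcript, which makes their levels uncertain.

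Class I genes, which present peptides from inside the cell to CD8+ T cells, gave a contrast with class II in 1 library, aged western-diet replicate 5. In aged western-diet replicate 5 H2-K1 stood at 149 scaled TPM, H2-D1 at 162 and B2m, the shared light chain, at 490.2. In the other aged western-diet hearts H2-K1 stood at 50.02 to 81.1 and B2m at 230.8 to 449.6 scaled TPM. H2-Aa and Cd74 of replicate 5, at 46.2 and 78.3, stayed within the range of the other Hap-I hearts. Across the 16 libraries H2-K1 and H2-D1 followed the class II mean at Pearson's r = 0.75 and 0.72 (0.53 and 0.50 without C57 replicate 3). Against C57 most class I values were below 0, as for class II. They were 9 of 9 in aged western-diet, 8 of 9 in aged and 8 of 9 in adult western-diet hearts (median log2 fold changes -0.34, -0.68 and -0.56). Of the 31-base stretches of H2-K1 22.8% and of H2-D1 26.7% also lie in other genes, in part in each other, so both levels are uncertain. Of 9 class I genes, all tested, Psmb8, an immunoproteasome subunit, was the only one called in any comparison, at -0.68 ± 0.19 in aged Hap-I against C57 hearts (limma adjusted p = 0.035). That call was lost without C57 replicate 1, C57 replicate 3 or any single aged heart. In the diet comparison B2m stood at 0.72 ± 0.24 (adjusted p = 0.173), Psmb8 at 0.49 ± 0.17 (adjusted p = 0.193) and Nlrc5, the class I counterpart of Ciita, at 0.51 ± 0.24 (adjusted p = 0.314).

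**Figure D4:**
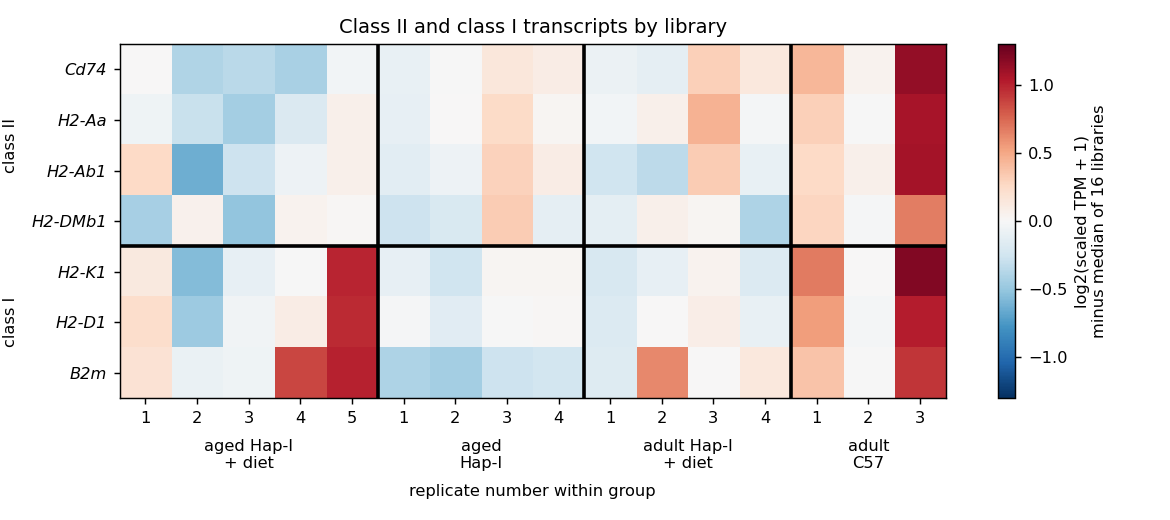
Deviation of log2(scaled TPM + 1) from the median of the 16 libraries for 4 class II and 3 class I transcripts, with libraries in columns by group and replicate. C57 replicate 3 is high in all 7 rows, whereas aged western-diet replicate 5 is high in H2-K1, H2-D1 and B2m and near the median in the class II rows.

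The balance between the classes was measured as ratios within a library, chosen after the values were seen and not corrected for transcript length. Whether differences between libraries by transcript length move these ratios was not tested. Cd74 over B2m was 0.291, 0.265, 0.266, 0.133 and 0.160 in aged western-diet Hap-I hearts, against 0.407, 0.445, 0.440 and 0.415 in aged Hap-I hearts without the diet. The groups did not overlap, and the difference in mean log2 ratio was -1.003 (exact permutation test, two-sided, p = 0.0159). Adjusted by Benjamini-Hochberg over the 30 ratio tests run it was 0.214, and no ratio test passed at 0.05. Adult western-diet hearts ran from 0.197 to 0.406 and C57 hearts from 0.340 to 0.385, so aged western-diet hearts also lay below, and aged hearts without the diet above, all C57 hearts. H2-Aa over H2-K1 was lowest of all 16 libraries in aged western-diet replicate 5, at 0.310, and ran from 0.458 to 0.792 in the others. By group it ran from 0.310 to 0.714 in aged western-diet, 0.591 to 0.716 in aged and 0.658 to 0.792 in adult western-diet Hap-I hearts, and from 0.458 to 0.586 in C57 hearts. Between aged western-diet and aged Hap-I hearts this ratio differed by -0.40 with overlap (exact permutation p = 0.103, adjusted p = 0.310), and aged western-diet against C57 hearts by -0.11 (exact permutation p = 0.679, adjusted p = 0.857). Aged and adult western-diet Hap-I hearts lay above C57 hearts without overlap, by 0.29 and 0.40 (exact permutation p = 0.0571 and 0.0286, adjusted p = 0.214 for both). H2-Ab1 over H2-Aa was 0.384 to 0.626 in aged western-diet, 0.471 to 0.522 in aged and 0.370 to 0.472 in adult western-diet Hap-I hearts, and 0.482 to 0.524 in C57 hearts. Adult western-diet hearts lay below C57 hearts without overlap in this ratio (difference -0.23, exact permutation p = 0.0571, adjusted p = 0.214), with 0.0286 the smallest p that 4 against 3 hearts allow.

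**Figure D5:**
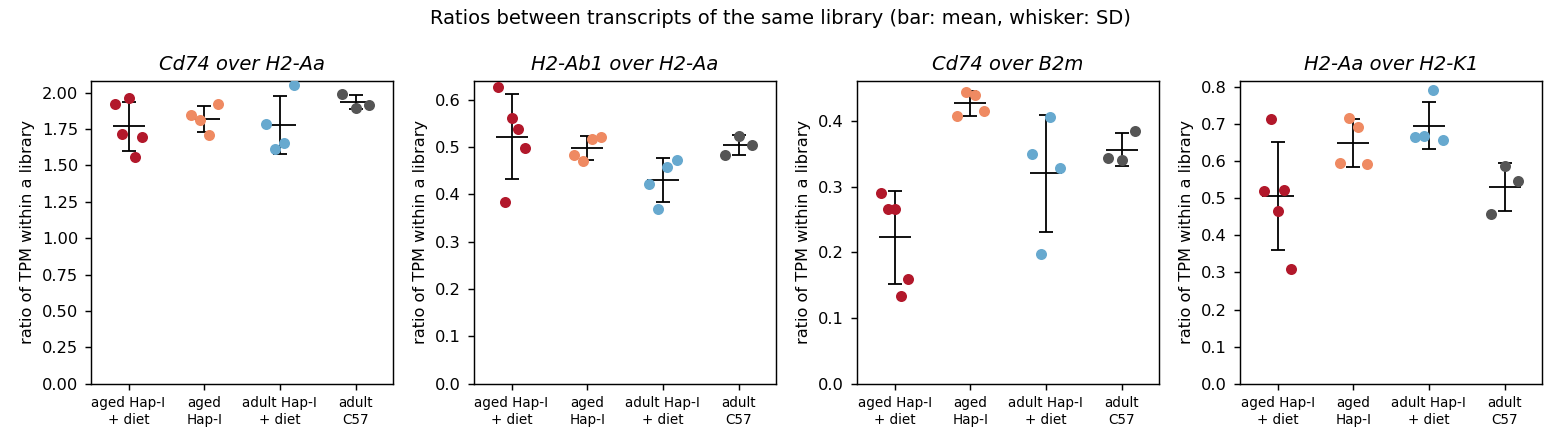
Ratios of TPM between transcripts of the same library by group, with mean and SD (n = 5, 4, 4 and 3). Cd74 over H2-Aa lies between 1.56 and 2.05 in all libraries, and Cd74 over B2m lies at 0.133 to 0.291 in aged western-diet hearts, below the 0.407 to 0.445 of aged hearts without the diet.

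Markers of the cells that could carry class II were measured beside these results. No pan-leukocyte marker (5 of 5 tested), macrophage marker (14 of 15 tested) or dendritic cell marker (2 of 10 tested) was called in any comparison. Pan-leukocyte markers summed to 20.02 to 30.2 scaled TPM in aged western-diet, 15.8 to 18.9 in aged and 20.6 to 40.4 in adult western-diet Hap-I hearts, and to 17.8 to 32.4 in C57 hearts. Macrophage markers summed to 112 to 162 in aged western-diet, 111 to 122 in aged and 103 to 137 in adult western-diet Hap-I hearts, and to 112 to 208 in C57 hearts. For both lists the groups overlapped in aged western-diet against C57 hearts, where their median log2 fold changes were 0.15 and -0.057 beside -0.60 for the class II genes. Pan-leukocyte sums did not overlap in the diet comparison, aged western-diet above aged Hap-I hearts, and 5 of 5 markers had values above 0 (median 0.40), where 4 of 5 class II genes had values below 0. Aged Hap-I hearts likewise lay below adult western-diet Hap-I hearts in these sums without overlap, with 5 of 5 markers below 0 (median -0.48). The complement genes C1qa, C1qb and C1qc made up most of the macrophage sum, and single macrophage markers, chosen here after their values were seen, had values in both directions, none called. In aged western-diet against C57 hearts Cd163 stood at -0.68 (limma adjusted p = 0.0547), Csf1r at -0.61 (adjusted p = 0.069), Mrc1 at -0.59 (adjusted p = 0.109) and Ccr2 at 0.24 (adjusted p = 0.117).

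Of 10 dendritic cell markers, 8 had medians under 1 scaled TPM, and Flt3 reached at most 0.114. Of 9 B cell markers 8 and of 8 T cell markers all had medians under 1. Against C57, the B cell kinase gene Blk was called higher in aged western-diet Hap-I hearts, at 0.58 ± 0.17 (limma adjusted p = 0.0239). It was also called higher in aged Hap-I hearts at 0.65 ± 0.18 (adjusted p = 0.0278) and for the mean of the 3 groups at 0.47 ± 0.15 (adjusted p = 0.043). Blk stood at 0.182 to 0.582 scaled TPM in C57 and at 0.391 to 0.718 in adult western-diet Hap-I hearts. It thus passed the filter of 1 TPM only through aged Hap-I hearts, and its calls are not read as differences. Stromal lists also had median log2 fold changes below 0 in aged western-diet against C57 hearts. Called lower were 3 of 8 fibroblast markers (Dcn, Dpt and Gsn) and 3 of 7 pericyte and smooth muscle markers (Kcnj8, Myh11 and Tagln). So were 2 of 4 white adipocyte markers (Cfd and Fabp4), where 9.57% of all genes tested were called lower. Fabp4 stood at 344.6 to 834.2 scaled TPM, while the other 6 genes of that list had medians under 1. The call of Fabp4 is therefore not read as one of adipocytes. Calls of marker genes were not refitted under the alternatives. Fibroblast markers summed to 345.5 to 742 scaled TPM in aged western-diet hearts and to 888 to 1139.9 in C57 hearts. In the other comparisons with C57, Dpt and Fabp4 were called lower in aged Hap-I hearts, and Kcnj8 and Myh11 in adult western-diet Hap-I hearts. For the mean of the 3 Hap-I groups Dcn, Dpt, Kcnj8, Myh11, Tagln, Cfd, Fabp4 and Tnni3 were called lower. Myh11, the smooth muscle myosin, was also called lower in the diet comparison, at -1.02 ± 0.17 (adjusted p = 0.0311), and the cardiomyocyte myosin Myh6 was called higher in aged over adult western-diet Hap-I hearts, at 1.34 ± 0.33 (adjusted p = 0.0469). None of 8 endothelial markers was called in any comparison, while 7 of 8 had values below 0 in aged western-diet against C57 hearts (median -0.36). Ventricular markers were high throughout, with sums of 35187 to 51349 scaled TPM in every library, as the label heart requires, and Tnnt2 and Tnni3 were called lower in aged western-diet hearts. The part of stromal and atrial cells in the class II differences was not tested, apart from the atrial covariate above.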

How the data were processed

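RNA from heart tissue of 16 mice was sequenced as 1 library each; per the labels' protocols, RNA was column-purified and a stranded TruSeq library was made after polyadenylated RNA pull-down. The authors deposited TPM per gene in 1 table of all libraries. The submitters' processing notes name kallisto, DESeq2 and GRCm38, with no versions, and no count values were used here. kallisto divides reads that fit several transcripts by an estimate. TPM keep no sequencing depth; depth is therefore unknown and all errors printed are spreads between mice. Per library 9553 to 11175 genes reached 1 TPM, and TPM summed to 942090 to 959772.

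Genes with at least 1 TPM in 3 or more libraries were kept. Each library was divided by its median-of-ratios size factor (0.678 to 1.231), and limma 3.58.1 (R 4.3.3) with a variance trend was fitted to log2(scaled TPM + 1) with a mean per group over all 16 libraries. The pseudocount of 1 understates fold changes of low genes. Two-sided p-values were adjusted (Benjamini-Hochberg) over all 11415 genes within each of 7 comparisons, the last of them between the unweighted mean of the Hap-I groups and C57. The fit was tested on simulated data. Symbols were matched for 29732 of the 30153 genes. Ratios were compared by exact permutation tests (SciPy 1.17.1, Python 3.11.15, pandas 2.3.3).

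The 7 genes and all lists were chosen with earlier results of these data known. Named are the 7 genes, every list gene called in any comparison (marker genes by list, with examples), up to 3 genes per pathway list of smallest p in the diet comparison, and the 10 genes most like the class II mean; 1 gene that this rule names is not reported here. Ratios, promoter motifs and the atrial covariate (mean of Myl7, Myl4, Sln and Mybphl) were chosen after the data were seen. Replicates were numbered in accession order, and the labels give no litter, batch or sex.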

Additional observations from a re-analysis of the deposited data

Results flagged for a closer look

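In groups of 4 or 5 hearts, the highest and lowest heart was compared with the others of its group for the 7 class II genes and the other pathway genes named by rule, 28 genes and 84 groups in all, of which chance singles out about 1 in 20. A heart stood far from the rest of its group 3 times, once among the 21 groups of class II genes. H2-DMa was 0.445 scaled TPM in adult western-diet Hap-I replicate 3, with the next heart of that group at 0.0682, both too low to be tested. Jak2, the kinase below the interferon gamma receptor, was 2.97 scaled TPM in aged western-diet replicate 5, with the next heart at 1.68. Cxcr4, a co-receptor of Cd74, was 4.49 scaled TPM in aged Hap-I replicate 4, with the next heart at 3.13.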

How the results depend on the processing

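Fold changes of the class II genes against C57 kept their sign under every alternative except the omission of single C57 hearts for H2-Eb1 in aged Hap-I hearts (-0.082 to 0.57), but their calls did not hold. The share of all genes called moved as well and is given in parentheses. In aged western-diet against C57 hearts, where 2 class II genes were called (21.9%), 0 were called without scaling (5.38%), with quantile normalization (19%), in a fit of only the groups compared (12.1%), with a sex covariate (12.2%), among hearts with Y-linked transcripts only (7.47%) or with the atrial covariate (5.84%). There, 1 was called without a filter (9.72%), and 1 to 4 when single hearts were left out (11% to 23.6%). For the mean of the 3 Hap-I groups, where 1 was called (15.7%), 0 were called without scaling (3.36%), with quantile normalization (13.4%), without a filter (6.64%), with a sex covariate (10.1%), among hearts with Y-linked transcripts only (10.9%), with the length correction (14.5%) or with the atrial covariate (4.93%), and 0 to 4 when single hearts were left out (4.93% to 18.5%). Leaving out single hearts gave 0 to 1 calls in aged Hap-I (3.26% to 13%) and in adult western-diet Hap-I hearts (0.683% to 5.04%) against C57. The 1 call was Cd74, lower, without C57 replicate 2 in both, and in adult western-diet hearts also H2-Eb1, higher, without C57 replicate 3. Without that heart H2-Eb1 is under the filter, and it is also the 1 call in aged western-diet hearts and in the mean. Over 5 genes, shares of these sizes come to about 1 gene or fewer. Pseudocounts of 0.1 and 0.5, a filter at 5 TPM and no variance trend changed none of these counts. Of 21 calls of other pathway genes, 19 were lost under at least 1 alternative, 15 of them without scaling and 15 without C57 replicate 3.

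Among Hap-I groups no class II gene was called under any alternative, and values near 0 changed sign. In aged western-diet over adult western-diet hearts, H2-Ab1 stood at 0.11 without scaling, 0.0042 with quantile normalization, 0.0035 with a filter at 5 TPM, 0.084 with a correction for transcript length, 0.014 with the atrial covariate and -0.13 to 0.11 without single hearts. H2-DMb1 stood at 0.050 without scaling, 0.22 in libraries with Y-linked transcripts, 0.056 with the length correction, 0.012 with the atrial covariate and -0.15 to 0.035 without single hearts, and H2-Eb1 at 0.18 in libraries with Y-linked transcripts. In aged Hap-I hearts over adult western-diet Hap-I hearts, H2-Aa stood at 0.27 without scaling, 0.017 with quantile normalization and -0.13 to 0.047 without single hearts, and Cd74 at 0.32 without scaling, 0.055 with quantile normalization, 0.0078 with a filter at 5 TPM, 0.11 with the length correction and -0.086 to 0.056 without single hearts. H2-DMb1 stood at -0.011 with quantile normalization, -0.0077 with a sex covariate and -0.084 to 0.11 without single hearts, and H2-Ab1 at -0.011 with the sex covariate and -0.067 among libraries with Y-linked transcripts. In the diet comparison H2-Ab1 stood at 0.0086 with the sex covariate and H2-DMb1 at 0.097 in libraries with Y-linked transcripts and -0.17 to 0.031 without single hearts. The cause was not tested.

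No paired analysis was possible because the labels give no replicate numbers shared between groups. Depth is unknown, so no limit from counting can be given.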
